A study of Rattus norvegicus with 6 samples.

Results

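Transcripts of 9 genes of antigen presentation by MHC class II were measured in epithelium from the inner wall of the colon in 6 rats, 3 given melatonin and 3 given vehicle. The genes are Cd74, RT1-Da, RT1-Db1, RT1-Ba, RT1-Bb, RT1-DMa, RT1-DMb, Ciita and Ctss. They were chosen by name, and each transcript of the deposited table that RefSeq assigns to one of these symbols was summed per gene. All 9 had a row, among 13104 genes and unmatched transcripts in all. All 6 animals were adult Wistar males without a pineal gland, the main source of circulating melatonin at night, so both groups lacked it. The treated animals, numbered 4, 5 and 6, received melatonin (1 mg/kg, intraperitoneal) at the start of subjective night. The vehicle animals, numbered 1, 2 and 3, received 2.5% ethanol in PBS at that time, and colon was taken 4 h after the injection from every animal. Each library is 1 animal, and the values are FPKM, in which a count of fragments is divided by transcript length and library total.

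The table gave no counts. Steps between low values of short transcripts pointed to 3270000 to 3550000 mapped fragments per library, so that 1 FPKM of a transcript of about the length of Cd74 stands for only a few reads. The tissue label was checked against 13 markers of colonic epithelium, of which 12 had a row, among them Epcam, Krt8 and Vil1. Their summed level was 13940 to 15159 FPKM in melatonin animals and 13956 to 14947 FPKM in vehicle animals. The 5 pan-leukocyte markers summed to 16.71 to 26.52 FPKM in melatonin animals and to 10.32 to 14.85 FPKM in vehicle animals. By this sum each melatonin animal was above each vehicle animal. In bulk samples, fewer cells of a type and less RNA per cell cannot be told apart.

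MHC class II molecules are pairs of an alpha and a beta chain that carry peptides from the endosome to the cell surface, where CD4+ T cells read them. The rat genes of the classical pairs are named RT1-D and RT1-B, and they correspond to human HLA-DR and HLA-DQ. The invariant chain, encoded by Cd74, escorts new pairs and blocks their groove. Cathepsin S, encoded by Ctss, cuts the invariant chain, and the DM heterodimer of RT1-DMa and RT1-DMb exchanges its last fragment for a peptide. Ciita encodes the class II transactivator, which binds no DNA itself and is recruited by the factors that sit on the X and Y boxes of class II promoters. Dendritic cells, macrophages and B cells carry class II at all times, while intestinal epithelial cells can be induced to carry it by interferon gamma.

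The promoters are shown because the X box and the Y box are where the transactivator is recruited, and because the genes below differed in whether they varied together. RefSeq promoter windows (GRCr8, 250 bases before to 50 after the annotated start) were at hand for 7 of the 9 members: Cd74, RT1-Da, RT1-Db1, RT1-Ba, RT1-Bb, RT1-DMa and Ctss. RT1-DMb and Ciita were not matched. The stretches below run from position -160 to position -21, counted from the annotated start and read along the gene, and capitals mark matches to the Y box, to the X box in RT1-Da and RT1-Bb, and to a shorter core of it in RT1-Db1 and RT1-DMa, on either strand. They lie on GRCr8 at chr18:56527046-56527185 (plus strand) for Cd74, chr20:4515255-4515394 (plus) for RT1-Da, chr20:4560183-4560322 (minus) for RT1-Db1, chr20:4576897-4577036 (plus) for RT1-Ba, chr20:4604139-4604278 (minus) for RT1-Bb and chr20:4712356-4712495 (minus) for RT1-DMa.
Cd74: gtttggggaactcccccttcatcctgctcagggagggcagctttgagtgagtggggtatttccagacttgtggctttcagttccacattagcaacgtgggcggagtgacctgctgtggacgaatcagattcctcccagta
RT1-Da: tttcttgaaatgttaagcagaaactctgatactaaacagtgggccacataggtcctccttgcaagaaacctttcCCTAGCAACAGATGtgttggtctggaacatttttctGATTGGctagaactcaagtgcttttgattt
RT1-Db1: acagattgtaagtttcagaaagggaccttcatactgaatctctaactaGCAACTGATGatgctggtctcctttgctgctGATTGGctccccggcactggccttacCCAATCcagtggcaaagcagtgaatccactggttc
RT1-Ba: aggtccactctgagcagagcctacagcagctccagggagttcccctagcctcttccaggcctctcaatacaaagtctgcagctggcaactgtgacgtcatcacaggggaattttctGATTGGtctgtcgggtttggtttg
RT1-Bb: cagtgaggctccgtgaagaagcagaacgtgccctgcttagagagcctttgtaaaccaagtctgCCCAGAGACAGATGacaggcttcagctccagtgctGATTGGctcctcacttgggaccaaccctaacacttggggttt
RT1-DMa: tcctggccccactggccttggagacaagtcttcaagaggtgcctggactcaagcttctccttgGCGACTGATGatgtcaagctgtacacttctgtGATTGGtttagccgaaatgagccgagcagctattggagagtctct

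The X box was searched as CC, any 2 bases, G, any 2 bases, AC, any base and GATG, read 5′ to 3′, and the Y box, an inverted CCAAT motif, as GATTGG, each on both strands. A full X box match was found in RT1-Da (CCTAGCAACAGATG) and RT1-Bb (CCCAGAGACAGATG), 2 of the 7 windows, against 0.221% of 33469 windows of all genes. A shorter core, made of the last 10 of these 14 bases and so overlapping every X box, was chosen after the promoters had been seen and matched in 4 of 7 (RT1-Da, RT1-Db1, RT1-Bb and RT1-DMa), against 2.84% of all windows. The Y box matched in 5 of 7, which added RT1-Ba, against 14.8% of all windows. In RT1-Da the core spanned -82 to -73 and the Y box began at -50, and in RT1-DMa they stood at -97 to -88 and from -65. A pair built on that core, not planned beforehand, was the core and a Y box on the same strand, 15 to 35 bases apart. It occurred in 8 of the 33469 windows, or 0.0239%, which is a description and no test. These 8 were RT1-Da, RT1-Db1, RT1-Bb and RT1-DMa with gaps of 21 or 22 bases, the class II genes RT1-Db2 and RT1-DOb with gaps of 20 and 19, and the genes Hsd17b7 and Ttc29 with gaps of 31 and 30. The interferon gamma element TTCNNNGAA matched in 0 of 7 windows, against 8.87% of all windows. At that share 0 matches in 7 windows is unremarkable, and the promoter of Ciita could not be searched. A match is a description of letters and says nothing of binding, and a variant of either box would be missed.

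**Figure D1:**
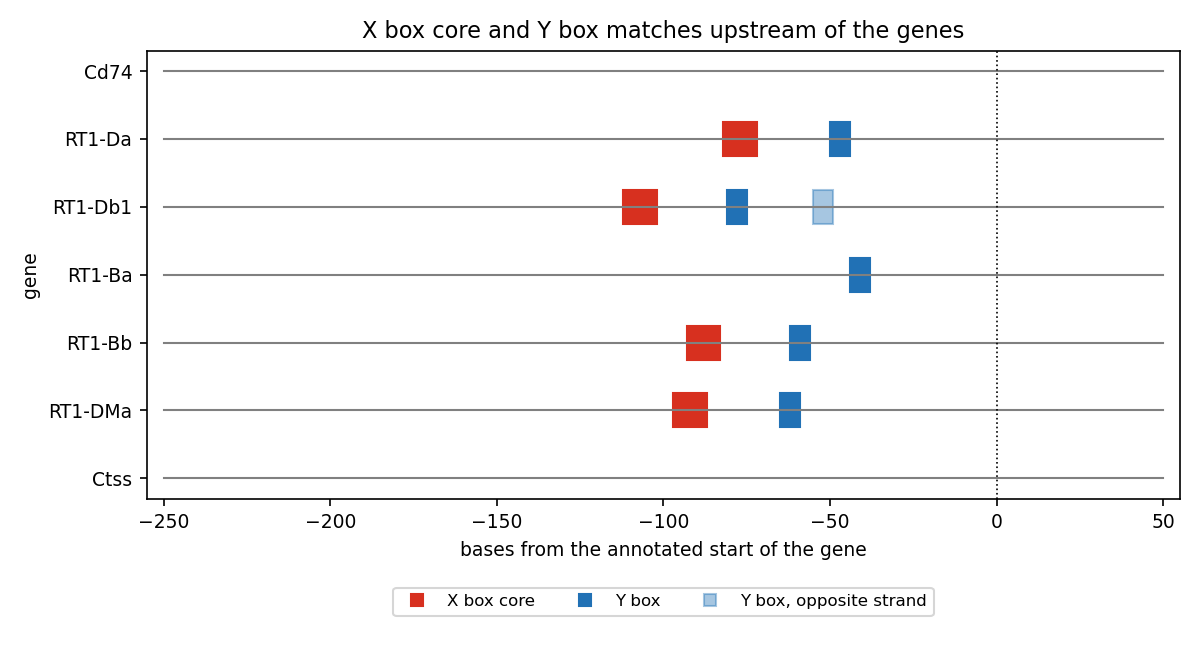
Position of X box core and Y box matches in the 7 promoter windows, in bases from the annotated start, 1 line per gene. RT1-Da, RT1-Db1, RT1-Bb and RT1-DMa match the core followed by the Y box at a gap of 21 or 22 bases. RT1-Ba matches the Y box alone, and Cd74 and Ctss match neither. Only fixed patterns were searched, so a variant of either box is not marked.

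The classical class II chains and the invariant chain were highest in melatonin animal 5, and the other melatonin animals lay within or near the vehicle range. Cd74 stood at 158.08, 630.83 and 86.24 FPKM in melatonin animals 4, 5 and 6, against 164.03, 75.43 and 59.88 FPKM in vehicle animals 1, 2 and 3. Animal 5 therefore stood 3.85-fold above the next animal, which was vehicle animal 1, and melatonin animals 4 and 6 lay inside the vehicle range. RT1-Da, the alpha chain of the D pair, had 22.90, 62.94 and 9.25 FPKM in the melatonin animals, against 22.34, 14.00 and 14.41 FPKM in the vehicle animals. RT1-Db1, its beta chain, had 16.60, 66.14 and 9.98 FPKM in the melatonin animals, against 17.98, 15.02 and 11.23 FPKM in the vehicle animals. For both chains animal 5 was the highest of the 6 animals and melatonin animal 6 the lowest.

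The B pair had the same highest animal. RT1-Ba, the alpha chain, was at 38.49, 138.51 and 40.25 FPKM after melatonin and at 65.51, 36.28 and 20.12 FPKM after vehicle. RT1-Bb, the beta chain, was at 32.05, 106.72 and 15.71 FPKM after melatonin and at 23.19, 17.11 and 23.46 FPKM after vehicle. Animal 5 exceeded the next animal 2.11-fold for RT1-Ba and 3.33-fold for RT1-Bb, and the remaining melatonin animals lay inside the vehicle range for RT1-Ba and on either side of it for RT1-Bb. The 4 chains together summed to 110.04, 374.31 and 75.19 FPKM after melatonin and to 129.02, 82.41 and 69.22 FPKM after vehicle. Within an animal the ratio of Cd74 to these 4 chains was 1.44, 1.69 and 1.15 after melatonin and 1.27, 0.915 and 0.865 after vehicle, highest in animal 5. RT1-Da and RT1-Db1 stayed close to each other, at a ratio of 0.927 to 1.38 in melatonin animals and 0.932 to 1.28 in vehicle animals. RT1-Ba over RT1-Bb was less even, at 1.20, 1.30 and 2.56 in melatonin animals and 2.82, 2.12 and 0.858 in vehicle animals. Among the vehicle animals, animal 1 was the highest for 4 of these 5 genes, RT1-Bb being the exception.

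Ciita, the transactivator of these genes, was the least abundant member. It stood at 1.76, 3.58 and 0.34 FPKM in melatonin animals 4, 5 and 6, against 0.79, 0.61 and 0.54 FPKM in vehicle animals 1, 2 and 3. Animal 5 was again the highest and animal 6 the lowest, with animal 4 second. These values correspond to about 30.5, 63.2 and 6.0 reads after melatonin and 13.9, 9.9 and 9.9 reads after vehicle, by the depth estimated here. Ciita has 3 transcripts in the table, of 5076, 5004 and 5295 bases, and in each animal the whole value was listed under a single transcript. That transcript was the one of 5076 bases in melatonin animal 4, the one of 5295 bases in vehicle animal 3 and the one of 5004 bases in the other 4 animals. Only the sum is used here, since so few reads leave the choice of transcript uncertain. Every vehicle value was below 1 FPKM, so Ciita passed the filter on low values through the melatonin animals.

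The genes of peptide exchange and invariant chain cutting did not share the high values of animal 5. RT1-DMa had 42.59, 56.90 and 57.56 FPKM after melatonin, against 43.11, 30.03 and 36.49 FPKM after vehicle. Animals 5 and 6 lay above every vehicle animal, and animal 4 lay just below vehicle animal 1. RT1-DMb, its partner, had 54.21, 55.70 and 39.33 FPKM after melatonin, against 51.36, 43.91 and 50.82 FPKM after vehicle, with the groups interleaved. Ctss had 219.37, 189.46 and 253.98 FPKM after melatonin, against 225.67, 170.30 and 199.96 FPKM after vehicle, and animal 5 was the lowest of the melatonin animals. Relative to Cd74, Ctss was at 0.300 in animal 5, at 1.39 and 2.95 in melatonin animals 4 and 6, and at 1.38 to 3.34 in the vehicle animals. RT1-DMa, whose promoter has the core and the Y box at the same gap as RT1-Da, was 1.56-fold above the vehicle mean in animal 5, where RT1-Da was 3.72-fold and Cd74 6.32-fold above it.

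**Figure D2:**
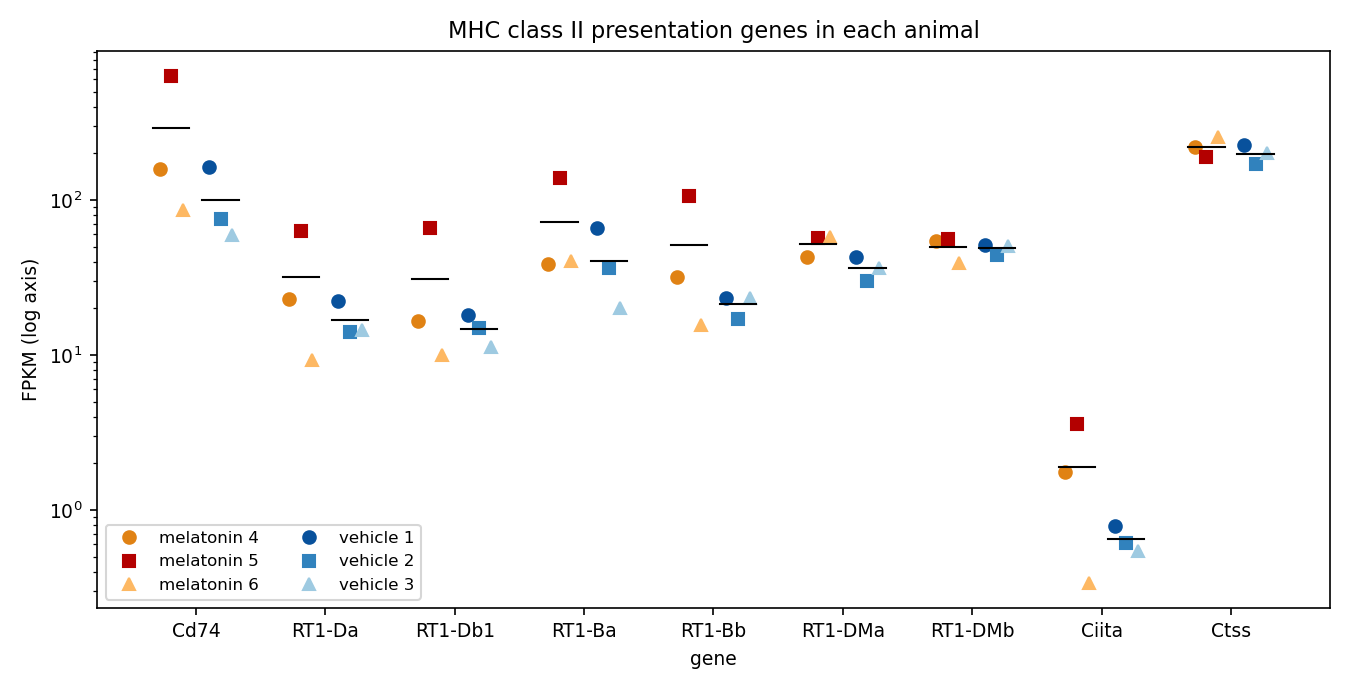
FPKM of the 9 genes in each animal on a log axis, with melatonin animals left of vehicle animals for each gene and a line at each group mean. Melatonin animal 5 stands above the other 5 animals for Cd74, the 4 chains and Ciita. It is 1.03-fold above the next animal for RT1-DMb and is not the highest for RT1-DMa and Ctss.

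By mean level after vehicle, per transcript length, Ctss was the highest at 199 ± 27.7 FPKM, followed by Cd74 at 99.8 ± 56.2 FPKM (SD, n = 3). RT1-DMb at 48.7 ± 4.15, RT1-Ba at 40.6 ± 23.0 and RT1-DMa at 36.5 ± 6.54 FPKM came next. RT1-Ba was not apart from either neighbour by more than the spread, while each vehicle value of RT1-DMb was above each of RT1-DMa. RT1-Bb at 21.3 ± 3.59, RT1-Da at 16.9 ± 4.70 and RT1-Db1 at 14.7 ± 3.38 FPKM overlapped, each with the next, and Ciita came last at 0.647 ± 0.129 FPKM. The D and B chains belong to a polymorphic family with near-identical copies such as RT1-Db2, so the division of reads between them is uncertain. RT1-Db2 itself was listed at 0.80, 0 and 0 FPKM after melatonin and at 0.78, 0 and 0 FPKM after vehicle. Cd74, Ciita and Ctss lie outside the RT1 complex.

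The comparison of melatonin with vehicle asks whether these genes respond to the hormone within hours. The difference of mean log2(FPKM + 1), melatonin minus vehicle, was positive for all 9 members, and none passed the test. With limma and Benjamini-Hochberg adjustment over 10137 features with a mean of at least 1 FPKM, 0 members passed an adjusted p of 0.05 in either direction, against a background of 0% of all features in each direction. The members' median log2 change was 0.60, against -0.018 over all features tested. That median was 0.10 over 8 members without melatonin animal 5 and 1.11 over 9 without melatonin animal 6. At an unadjusted p under 0.05 stood 1 member, RT1-DMa, and 380 of all features (3.75%). These counts moved with single animals. They were 0 members and 270 features without melatonin animal 5, and 0 members and 272 features without vehicle animal 2. Without melatonin animal 6 they were 4 members and 307 features, and without melatonin animal 4 they were 1 member and 1156 features. Over all features the count was also lower without vehicle animal 3, at 253. The 3 melatonin animals lay above all vehicle animals for 0 members, against 4.04% of features, and below them for 0, against 4.33%.

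Cd74 had the highest estimate, a log2 change of 1.17 ± 0.67 (SE, limma adjusted p = 0.972), with group means of 292 ± 296 FPKM after melatonin and 99.8 ± 56.2 FPKM after vehicle (SD, n = 3 each). The SD of the melatonin group exceeded its mean. RT1-Bb had a log2 change of 0.82 ± 0.57, RT1-Ba 0.71 ± 0.54, Ciita 0.64 ± 0.44, RT1-Db1 0.60 ± 0.57 and RT1-Da 0.51 ± 0.56, with limma adjusted p-values of 0.972 to 0.974. RT1-DMa had an estimate of 0.51 ± 0.17 (limma adjusted p = 0.972), and 2 of its 3 melatonin animals lay above every vehicle animal. For RT1-DMb the log2 change was 0.017, with a 95% confidence interval of -0.33 to 0.36, and for Ctss it was 0.15, with an interval of -0.17 to 0.48. In the authors' deposited table the log2 ratio of group means was 1.55 for Cd74 and 1.28 for RT1-Bb. The same deposited table gives a score per transcript, and Cd74 had the thirteenth highest of 13647 there, at 0.866. By that score RT1-Bb ranked 38th, RT1-Db1 77th, RT1-Ba 86th, RT1-Da 98th and RT1-DMa 237th. Ctss ranked 2364th, RT1-DMb 9947th and the transcripts of Ciita 2643rd, 3146th and 7339th. A ratio of means weights the highest animal more than a difference of mean log2 values does.

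Without melatonin animal 5 the log2 change of Cd74 was 0.36 ± 0.43, that of RT1-Ba 0.11 and that of RT1-Bb 0.092, and those of RT1-Da and RT1-Db1 turned to -0.16 each (limma adjusted p = 0.999). Ciita no longer reached a mean of 1 FPKM and was not tested in that setting. RT1-DMa kept 0.44 ± 0.20 and Ctss had 0.26 ± 0.15 without that animal. Without melatonin animal 6, the animal with the lowest D chains, the log2 change of Cd74 was 1.79 ± 0.60 (limma adjusted p = 0.9999) and that of RT1-Da 1.16. Vehicle animals moved the estimates too: the log2 change of RT1-Ba was 1.12 without vehicle animal 1 and 0.29 without vehicle animal 3.

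**Figure D3:**
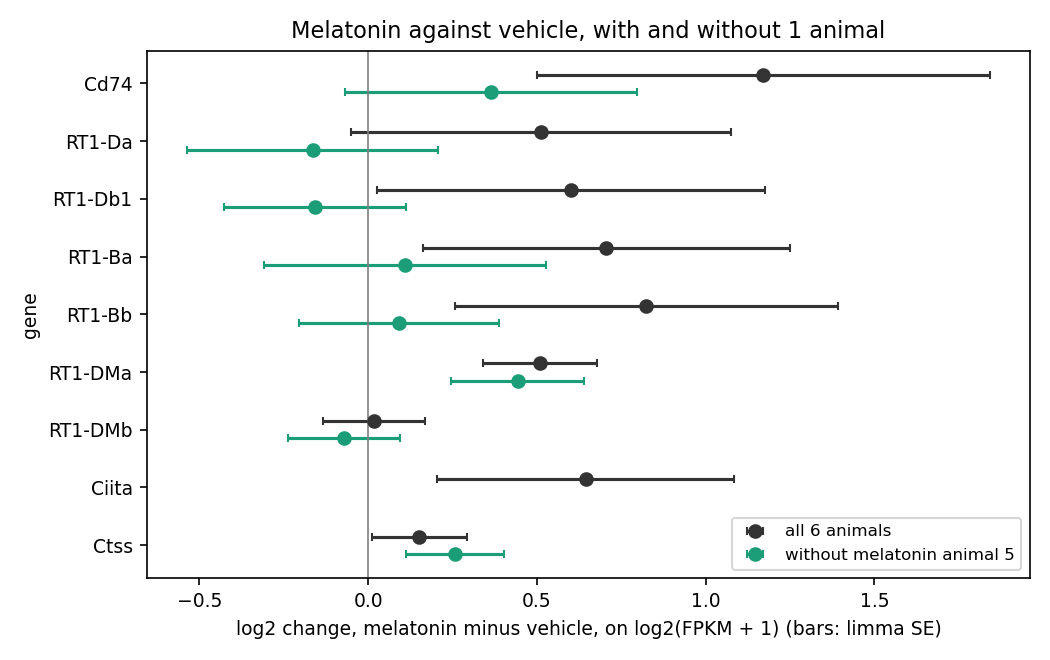
Log2 change of each gene (difference of mean log2(FPKM + 1), melatonin minus vehicle), with the limma SE as a bar, from all 6 animals and without melatonin animal 5. Cd74 goes to 0.36 and RT1-Da and RT1-Db1 to -0.16 without that animal, while RT1-DMa remains at 0.44, and Ciita has no value there.

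The value of animal 5 was set beside what is common in these libraries. Animal 5 stood at least 2-fold above every other animal for 6 of the 9 members, namely Cd74, RT1-Da, RT1-Db1, RT1-Ba, RT1-Bb and Ciita, against 22 of 10137 features (0.217%). It was the highest animal for 7 of 9 members, against 17.1% of features. The members were chosen with the pattern of animal 5 known, so these shares describe it and test nothing. Of those 22 features, the 5 with the highest mean level were Cd74, RT1-Ba, RT1-Bb, RT1-Da and RT1-Db1. The others reached at most 26.25 FPKM in animal 5, a value held by Cth, an enzyme of cysteine synthesis. Cxcl9, a chemokine induced by interferon gamma, was among them at 1.11, 9.67 and 4.31 FPKM after melatonin and 2.70, 4.12 and 1.64 FPKM after vehicle. Spi1, which encodes the myeloid and B cell factor PU.1, was another at 1.5, 3.54 and 0.42 FPKM after melatonin and 0, 1.14 and 0.63 FPKM after vehicle.

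**Figure D4:**
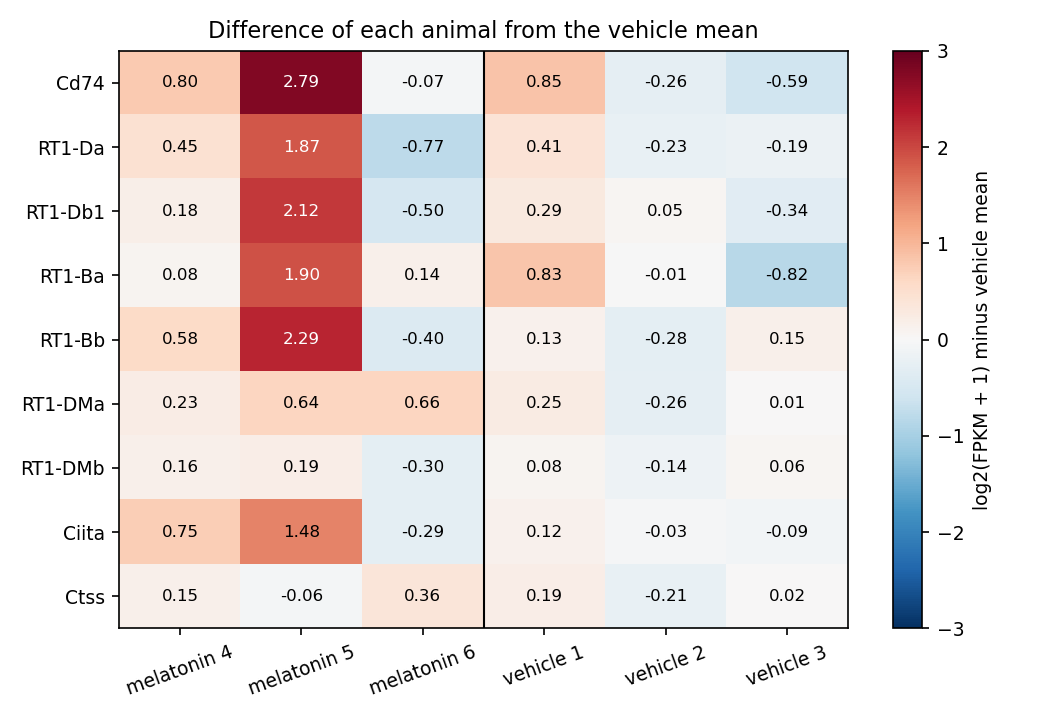
Difference of each animal from the vehicle mean on the log2(FPKM + 1) scale, genes in rows and animals in columns, with melatonin animals left of the line. Animal 5 stands at 1.48 to 2.79 for Cd74, the 4 chains and Ciita, at 0.64 for RT1-DMa, at 0.19 for RT1-DMb and at -0.059 for Ctss.

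Likeness to Cd74 was measured as the root mean square difference between log2 profiles over the 6 animals, each centred on its own mean, among 10136 features. RT1-Db1 ranked 1st at 0.41, and RT1-Ba, RT1-Da and RT1-Bb ranked 3rd to 5th at 0.44 to 0.46. Ciita ranked 12th at 0.60. RT1-DMa ranked 502nd, RT1-DMb 1142nd and Ctss 6181st. The 10 genes outside the list with the most similar profiles were Vch, Ly6c, Mir760, Ankrd22, Srgn, Cd34, Mcpt1, Ifgga2l1, Cmpk2 and Zbtb16. The most similar was Vch, which encodes a chymase, at 40.20, 65.68 and 17.15 FPKM after melatonin and 33.13, 14.07 and 13.93 FPKM after vehicle. Mcpt1, a mast cell protease, stood at 103.50, 173.89 and 56.75 FPKM after melatonin and 142.82, 52.52 and 64.61 FPKM after vehicle. Srgn, the core protein of the granule proteoglycan serglycin, stood at 13.86, 27.31 and 8.50 FPKM after melatonin and 14.34, 4.82 and 9.80 FPKM after vehicle. For these 3 genes vehicle animal 1 was the highest vehicle animal, as it was for Cd74. The same held for Ly6c, Ankrd22, Cd34, Cmpk2 and Zbtb16, but not for Ifgga2l1. All were picked by likeness to Cd74 over these same animals, so the shared order follows from the choice and tests nothing. Mir760, listed at 6.32 FPKM in animal 5 and at 0 in the other 5 animals, rests on about 1.1 reads.

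Other class II chains did not follow animal 5. RT1-DOa, the alpha chain of the DO modulator of DM, was listed at 6.36, 0 and 2.71 FPKM in melatonin animals 4, 5 and 6 and at 1.16, 1.27 and 2.35 FPKM in vehicle animals 1, 2 and 3. RT1-DOb, its beta chain, was listed at 1.10, 0.36 and 0 FPKM after melatonin and at 0, 0.39 and 0.72 FPKM after vehicle. Both were highest in melatonin animal 4, and so was RT1-Ha, listed at 0.36 FPKM there and at 0 elsewhere. Of 5 such chains 4 had a row, and RT1-DOa alone passed the filter on low values (limma adjusted p = 0.981). In the annotation 13 genes lie from RT1-Da to RT1-DMa, and 6 of them that are no members have a row. Among these were the class I loading genes Tap1, Tap2, Psmb8 and Psmb9, of which Tap2, Psmb8 and Psmb9 were highest in melatonin animal 6. Psmb9 had 42.79, 64.73 and 95.44 FPKM after melatonin, against 64.36, 20.85 and 28.67 FPKM after vehicle, and Tap1, highest in animal 5, had 11.36, 37.76 and 26.70 FPKM after melatonin, against 20.55, 10.16 and 10.49 FPKM after vehicle.

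Of 10 genes listed as class II transcription factors, with Irf8 and cofactors among them, 8 had a row. For 0 of these 8 was animal 5 at least 2-fold above every other animal. All 8 were tested with limma, and 0 passed in either direction, with 2 log2 changes positive, 6 negative and a median of -0.072. Rfx5, the X box factor whose loss gives bare lymphocyte syndrome in humans, was at 8.03, 5.11 and 6.27 FPKM after melatonin and 7.09, 6.55 and 7.03 FPKM after vehicle. Its partner Rfxap was at 11.08, 10.25 and 7.36 FPKM after melatonin and 9.78, 11.04 and 10.23 FPKM after vehicle. Rfxank, the remaining subunit, was at 12.09, 12.34 and 10.60 FPKM after melatonin and 14.36, 14.16 and 14.11 FPKM after vehicle. All 3 of its melatonin values lay below the vehicle values (limma adjusted p = 0.972). This held for 1 of the 8 genes, against 4.33% of all features. The Y box factor gene Nfya was at 18.21 to 19.73 FPKM after melatonin and 18.24 to 19.46 FPKM after vehicle.

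Over the 9 endosomal processing genes, all tested, the median log2 change was 0.039, and 0 passed in either direction with limma. Ifi30, the thiol reductase of antigen processing, was at 57.79, 51.28 and 48.91 FPKM after melatonin and 63.13, 57.85 and 60.28 FPKM after vehicle. Lgmn, the asparaginyl endopeptidase that makes early cuts in the invariant chain, was at 15.85, 12.94 and 30.57 FPKM after melatonin and 12.37, 13.66 and 14.54 FPKM after vehicle, so animal 6 alone was high. The cathepsins Ctsb and Ctsd were at 479 to 565 and 185 to 191 FPKM after melatonin and at 463 to 580 and 172 to 196 FPKM after vehicle. Marchf8, a ubiquitin ligase that removes class II from the surface, was at 49.90 to 54.46 FPKM after melatonin and 49.52 to 57.22 FPKM after vehicle. Cd83, which opposes such removal, was at 8.94, 7.88 and 3.48 FPKM after melatonin and 6.57, 9.07 and 6.64 FPKM after vehicle. Cd86, the costimulatory ligand of professional presenting cells, was at 3.16, 1.23 and 3.39 FPKM after melatonin and 4.63, 3.03 and 3.74 FPKM after vehicle, lowest in animal 5. None of these 3 passed the test.

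Of 8 interferon gamma pathway genes 7 had a row and were tested, with a median log2 change of 0.26, all 7 positive and 0 past the test with limma. The receptor genes Ifngr1 and Ifngr2 were at 116.52, 149.36 and 172.08 and at 81.88, 90.81 and 94.98 FPKM after melatonin. After vehicle Ifngr1 was at 117.39 to 122.10 and Ifngr2 at 78.61 to 82.02 FPKM. The kinase genes Jak1 and Jak2 overlapped between groups. Irf1 and Socs1, both induced by the cytokine, were picked for naming after their values were seen. Irf1 was at 46.43, 91.58 and 83.48 FPKM after melatonin and 62.13, 31.49 and 48.14 FPKM after vehicle. Socs1, a feedback inhibitor of the pathway, was at 2.73, 6.51 and 10.40 FPKM after melatonin and 1.94, 0.53 and 1.71 FPKM after vehicle. Melatonin animals 5 and 6 were thus both above the vehicle animals for these 2 genes, whereas the class II chains were high in animal 5 and within or below the vehicle range in animal 6. For Socs1 animal 4 was above them too, so the groups were apart for 1 of the 7 genes, against 4.04% of all features.

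The summed markers of B cells, dendritic cells and macrophages did not peak in animal 5, although single markers did. Of 14 B cell markers, 12 had a row, and their summed level was 44.19, 25.50 and 14.84 FPKM in melatonin animals 4, 5 and 6, against 20.55, 31.23 and 20.87 FPKM in vehicle animals 1, 2 and 3. Of these 12, animal 4 was the highest for 7 and animal 5 for 1 (Vpreb3), and 0, 2 and 7 were listed at 0 after melatonin, against 7, 1 and 1 after vehicle. Pax5 and Cr2, which encode a B cell transcription factor and a complement receptor, were the 2 at 0 in animal 5, and both were also at 0 in melatonin animal 6 and vehicle animal 1. Of 8 dendritic cell markers, 4 had a row, 0 passed the filter on low values, and the sum was 0.85 to 2.25 FPKM after melatonin and 0.38 to 1.11 FPKM after vehicle. Batf3 was at 0 in animal 5 and in all vehicle animals. Ccr7 was at 0 in melatonin animals 5 and 6 and in vehicle animal 1, and Clec10a was highest in animal 5, at 0.75 FPKM. The 12 macrophage and monocyte markers with a row summed to 172.55, 135.53 and 164.62 FPKM after melatonin and to 190.26, 119.45 and 177.82 FPKM after vehicle, most of it Cd14. Set against the vehicle mean, the list's median difference on the log2 scale was highest in animal 5, at 0.14, 0.27 and -0.01 after melatonin and 0.25, -0.24 and 0.03 after vehicle. Cd68 was highest in animal 5, at 1.93, 4.22 and 2.11 FPKM after melatonin and 2.35, 1.80 and 1.90 FPKM after vehicle, and Adgre1 reached its highest value, 0.35 FPKM, in animal 5 and in vehicle animal 1. Itgam was at 0 in animal 5 and in vehicle animal 2. Lymphoid follicle markers, 5 with a row, summed to 23.54, 12.74 and 6.47 FPKM after melatonin and to 22.31, 16.05 and 3.80 FPKM after vehicle. Plasma cell markers, 5 with a row, summed to 2.17, 5.08 and 8.31 FPKM after melatonin and to 2.10, 2.22 and 2.11 FPKM after vehicle.

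T and NK cell markers, 11 with a row, summed to 8.18, 16.26 and 26.23 FPKM after melatonin and to 13.01, 13.42 and 4.74 FPKM after vehicle. The summed level of the 5 pan-leukocyte markers was highest in animal 4, at 26.52 FPKM, and stood at 16.71 FPKM in animal 5. This sum was higher in all melatonin animals than in all vehicle animals. Taken singly, 2 of the 5 markers separated the groups in that way, against 4.04% of all features. Compared with animal 4, a choice made after the values were seen, animal 5 had lower sums of 5 lists. These were the B cell, dendritic cell, macrophage, lymphoid follicle and pan-leukocyte lists. Most of the macrophage sum was Cd14, and the median log2 difference of that list was higher in animal 5, at 0.27 against 0.14. Animal 5 had higher sums of the T and NK cell list and of the plasma cell list, the latter at 5.08 against 2.17 FPKM. The 4 class II chains were 374.31 FPKM in animal 5 and 110.04 FPKM in animal 4. None of the members of these lists passed limma at an adjusted p under 0.05. The part of these cells in the class II values was not tested.

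**Figure D5:**
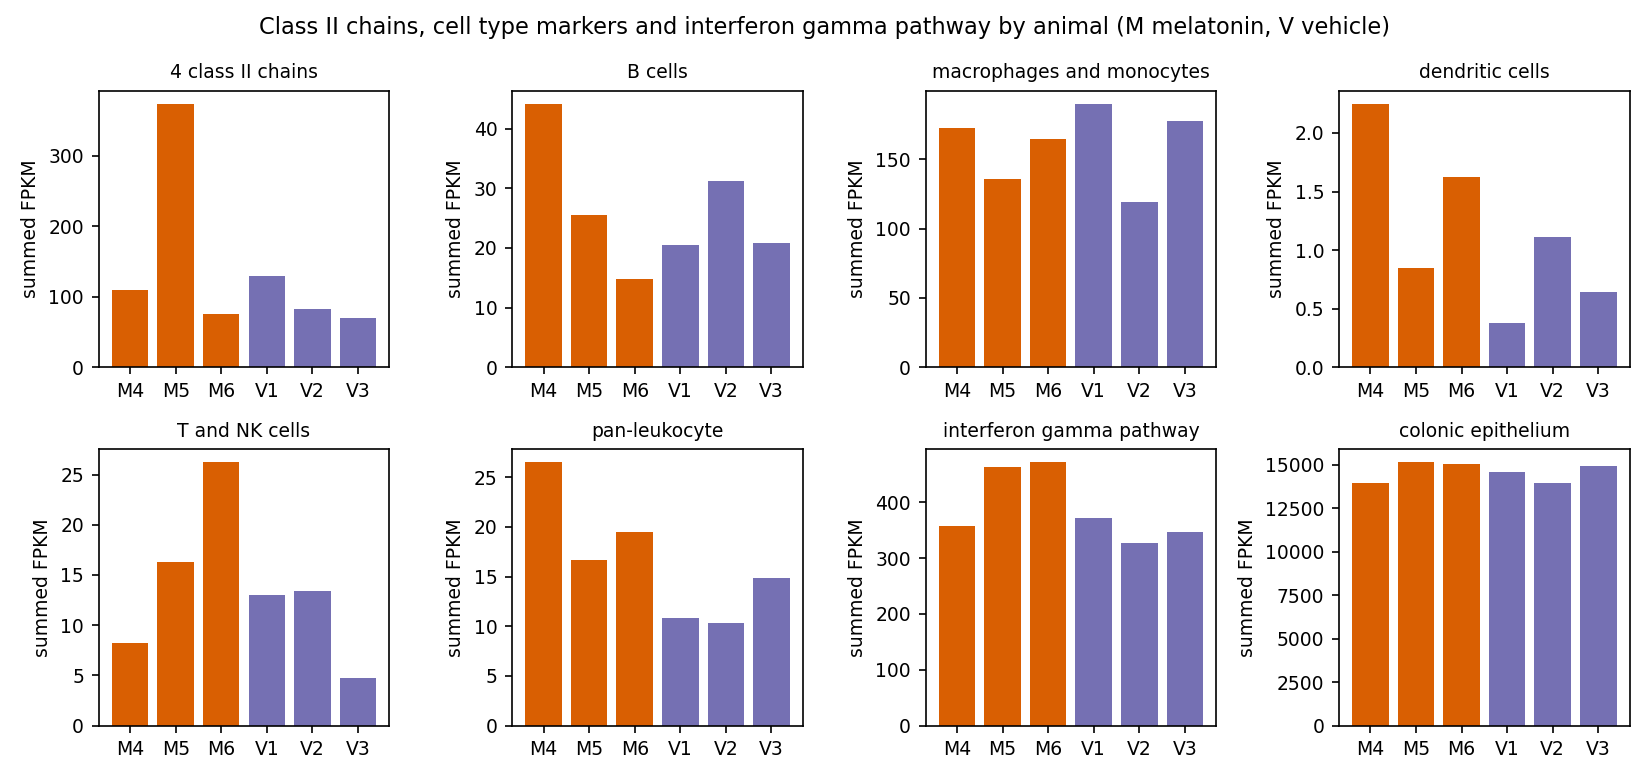
Summed FPKM per animal of the 4 class II chains, of 6 marker lists and of the interferon gamma pathway list, with melatonin animals left of vehicle animals. The chains peak in animal 5 at 374.31 FPKM, the B cell and pan-leukocyte lists in animal 4 at 44.19 and 26.52 FPKM, and the T and NK cell list in animal 6 at 26.23 FPKM.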

How the data were processed

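The authors deposited FPKM values per RefSeq transcript and animal, rounded to 2 decimals, per the file headers. The deposited table also holds the authors' group means in FPKM, their log2 ratio of these means and a score per transcript of which no tool is stated in the labels. BWA 0.7.10-r789, Bowtie2, RSEM and build rn6 appear, without roles, in the submitters' processing notes. No strand marking is described in the labels' protocols. How reads from RT1 alleles other than those of the reference were placed is not given in the sources used here. RNA integrity numbers were 9.0 to 9.7 per the labels.

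Transcripts were matched to symbols of the RefSeq annotation (GRCr8, names only; 12883 of 13647 matched) and summed per gene. Features with a mean of at least 1 FPKM were tested with limma 3.58.1 (R 4.3.3) on log2(FPKM + 1), fitting a trend of variance on mean, with two-sided p-values adjusted by Benjamini-Hochberg. This scale understates the change of low genes. The procedure was tested on simulated data. Depth was estimated from values of transcripts of up to 600 bases, with 33 bases taken off each length: 85.9% to 90.6% of the low values lay within 0.1 of a whole read. RSEM divides reads, so these are estimates. Alternatives covered pseudocount, filter, scaling, transcript choice, variance trend and each animal left out.

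The 9 members, the gene lists and the motifs were chosen with earlier results of these data known. Named genes were the members, the first 4 tested genes of each pathway list in the order written, and the 10 profiles nearest to Cd74. Other genes with values, among them Cth, Cxcl9, Spi1, Tap1, Psmb9, Irf1, Socs1 and the single cell type markers, were chosen after their values were seen.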

Additional observations from a re-analysis of the deposited data

How the results depend on the processing

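No paired analysis was possible because the animals of the groups share no number. Under every alternative run, 0 members were called in either direction. Over all features, limma called 1 higher (Pkib) with the highest transcript per gene. It called 1 lower (Mir3074) with no filter and 1 lower, the same microRNA precursor, with no mean trend. Leaving out each animal gave 0 to 4 higher and 0 lower. The 4 were Ifi27l2b, Ifit2, Mir126a and Oasl2 without melatonin animal 4, and 3 others (Fam111a, Scgb1a1 and Tnfsf10) passed without vehicle animal 1. The cause was not tested. The direction turned when an animal was left out for RT1-Da (log2 change -0.16 to 1.16), RT1-Db1 (-0.16 to 1.15) and RT1-DMb (-0.071 to 0.17). The lowest of each came without melatonin animal 5, the highest without melatonin animal 6. RT1-DMb, near 0 throughout, also turned to -0.052 without melatonin animal 4 and -0.054 without vehicle animal 2. Over all alternatives the log2 change ran from 0.36 to 1.79 for Cd74, from 0.092 to 1.44 for RT1-Bb, from 0.11 to 1.12 for RT1-Ba and from 0.38 to 0.65 for RT1-DMa, whose smallest limma adjusted p was 0.290. Scaling moved no direction of a member. Ciita fell below the filter in 3 alternatives: at least 1 FPKM in at least 3 animals, the highest transcript alone, and without melatonin animal 5. With the shorter X box core, 4 member promoters matched, against 2. With so few fragments per library, genes near 1 FPKM rest on few reads.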
